A study of Homo sapiens with 6 samples.

Results

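The interleukin 1 (IL-1) family of ligands and receptors was examined in DCIS.COM cells with and without BCL9 knockdown. The family was taken up because of the higher FPKM of IL1A and IL1B in BCL9 KD cells, so the members were chosen by these values, which are given below as a description with no test. The other 8 members were added as further agonists, antagonists and receptor chains of the family, with earlier results of these data known. The members were found by gene symbol, and all 10 were present among the 58676 genes of the deposited table.

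DCIS.COM is an established human breast cancer cell line of the basal type, used as a model of ductal carcinoma in situ. The NS control cells carried a non-silencing PLKO.1 lentiviral vector and the BCL9 KD cells carried the PLKO.1 vector with a shRNA against BCL9, a transcriptional coactivator of the Wnt pathway. Both groups were grown in DMEM/F12 medium with horse serum and antibiotic, with 3 NS control and 3 BCL9 KD samples, each from a flask of its own. The methods describe fewer biological replicates per condition than the labels and the table, whose samples were all used. A single BCL9 shRNA was used in 1 cell line, and no source used here says that the flasks of a group came from separate transductions, so p-values measure the spread between flasks. The level of each gene is given as FPKM, the reads counted on a gene scaled to its length and to the depth of the sample. The read numbers behind the FPKM values could be recovered, and the depth ranged from 15222452 to 26949026 reads on genes per sample. BCL9 itself was at 6.25, 6.24 and 5.34 FPKM in NS control and 2.86, 2.78 and 2.59 FPKM in BCL9 KD samples, a log2 fold change of −0.99 with a limma adjusted p of 0.00773. NS control replicate 1 stood apart in its relation to GC content. Its deviation from the mean of all samples of both groups correlated with the GC content of the genes (r = 0.491). In the other samples this correlation was −0.232 to 0.0476.

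IL-1 family cytokines are alarm signals that epithelial cells make and that start inflammatory responses in the cells around them. IL-1α (IL1A) and IL-1β (IL1B) bind the receptor IL1R1, which then recruits the accessory chain IL1RAP and signals through MYD88 and IRAK kinases to NF-κB. The response is held down at several points, by the receptor antagonist IL1RN, which occupies the receptor without signaling, and by the decoy receptor IL1R2, which binds ligand and lacks the signaling domain. IL-18, IL-33 and the IL-36 cytokines act through related receptors, with IL36RN as the antagonist for IL-36.

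The members lay mostly on chromosome 2, in separate ligand and receptor clusters, and the promoter sequences of the members with a motif match are shown first, as the sequence context of IL1A, IL1B and IL1RN. The windows are the 250 bases before the RefSeq start of each gene in GRCh38.p14, read 5′ to 3′ on the strand of the gene, with the motif match in capitals. IL1A (chr2:112784494-112784743, minus strand) holds an AP-1 motif, IL1B (chr2:112836780-112837029, minus strand) holds a STAT motif, and IL1RN (chr2:113117721-113117970, plus strand) holds an AP-1 motif.
IL1A: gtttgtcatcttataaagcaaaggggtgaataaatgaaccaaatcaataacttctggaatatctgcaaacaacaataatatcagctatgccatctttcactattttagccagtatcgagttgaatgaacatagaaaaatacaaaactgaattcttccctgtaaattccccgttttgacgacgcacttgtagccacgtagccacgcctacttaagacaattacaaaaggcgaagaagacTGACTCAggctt
IL1B: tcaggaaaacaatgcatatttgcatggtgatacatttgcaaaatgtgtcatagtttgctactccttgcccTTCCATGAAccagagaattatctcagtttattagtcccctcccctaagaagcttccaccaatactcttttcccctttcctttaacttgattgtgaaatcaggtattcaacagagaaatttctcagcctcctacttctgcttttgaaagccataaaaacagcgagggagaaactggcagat
IL1RN: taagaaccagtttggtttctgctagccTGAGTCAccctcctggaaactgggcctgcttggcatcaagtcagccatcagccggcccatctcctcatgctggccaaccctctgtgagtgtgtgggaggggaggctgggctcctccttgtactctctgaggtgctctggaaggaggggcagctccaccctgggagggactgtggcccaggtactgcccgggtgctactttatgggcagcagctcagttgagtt
The match TGACTCA began 12 bases before the start of IL1A, TTCCATGAA began 180 bases before that of IL1B and TGAGTCA began 223 bases before that of IL1RN. The RefSeq starts of IL1A and IL1B lie inside the gene bounds of the deposited table, so part of these windows falls within the longer gene models there, and IL1RN starts further upstream in the table than in RefSeq. The motifs searched on both strands were AP-1 (TGANTCA), STAT (TTCNNNGAA), TCF (TCAAAG) and the kappaB consensus, and they were present in 6.57%, 6.57%, 11.2% and 9.96% of 35116 RefSeq windows of the same length. Windows were given for 9 of the 10 members, all but IL18, and the windows of IL36G, IL33, IL36RN, IL1R1, IL1R2 and IL1RAP held none of these letters. A match to any of the 4 motifs was thus found in 3 of 9 members' windows, near the 30.0% of all windows that hold one, and nothing is read from it. These matches are descriptions of the sequence, and no binding was measured here.

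IL1A, the agonist stored inside epithelial cells and released upon damage, was the tested member with the largest difference in log2(FPKM + 0.5). Its 78, 109 and 99 reads in the NS control flasks amounted to 1.62, 2.54 and 3.06 FPKM. In BCL9 KD samples it was at 10.6, 11.6 and 11.1 FPKM (399, 665 and 371 reads). The lowest BCL9 KD sample was well above the highest NS control sample, and the NS control values were more widely spread relative to their mean than the BCL9 KD values. Means were 2.41 ± 0.731 FPKM (SD, n = 3) and 11.1 ± 0.495 FPKM (SD, n = 3), a 4.63-fold difference. The log2 fold change of FPKM + 0.5 was 2.03 (SE 0.184), and it was between 1.82 and 2.20 with a replicate left out.

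IL1B, the agonist that is made as an inactive precursor and cleaved by caspase-1, differed by a similar factor at a lower level. Its 72, 56 and 34 reads in the NS control flasks amounted to 1.02, 0.894 and 0.721 FPKM. In the BCL9 KD flasks it was at 3.38, 3.94 and 4.04 FPKM (185, 329 and 196 reads). The groups were again far apart, with NS control replicate 3 lowest. The means were 0.880 ± 0.152 FPKM (SD, n = 3) and 3.79 ± 0.356 FPKM (SD, n = 3), a 4.31-fold difference, with a log2 fold change of 1.64 (SE 0.127). On the recovered reads, where no FPKM is added, the log2 fold changes by voom were 2.30 for IL1A and 2.08 for IL1B.

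IL18, a further caspase-1 substrate best known for inducing interferon-γ in lymphocytes, was by level the leading agonist in both groups. It was at 16.8, 16.2 and 18.2 FPKM in NS control samples (1000, 862 and 729 reads). BCL9 KD samples had 22.2, 23.0 and 24.8 FPKM (1030, 1626 and 1019 reads). All 3 BCL9 KD samples lay above all 3 NS control samples. The means of 17.1 ± 1.04 and 23.3 ± 1.32 FPKM (SD, n = 3) differed 1.37-fold, and IL18 rose in BCL9 KD with a log2 fold change of 0.44 (SE 0.0775), a limma adjusted p of 0.0322 and an exact permutation p of 0.1 (two-sided), the smallest that 3 against 3 samples allow. The call was lost when the values were corrected for GC content (log2 fold change 0.27, limma adjusted p of 0.128). The call was also lost when every gene with a read was tested (limma adjusted p of 0.0743) and when limma was run with no trend (0.0551). It was also lost without NS control replicate 2 (limma adjusted p of 0.142), BCL9 KD replicate 2 (0.156) or BCL9 KD replicate 3 (0.162).

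The remaining agonists were near the limit of detection. IL36G, an epithelial IL-36 agonist, had 1, 4 and 0 reads in NS control and 5, 4 and 1 reads in BCL9 KD samples. IL33, an alarmin of barrier tissues that is read by the receptor IL1RL1, had 0, 3 and 3 reads in NS control and 0, 1 and 0 reads in BCL9 KD samples. Both groups overlapped for both genes, and a difference was not detectable at this depth. The ratio of BCL9 KD to NS control from the pooled reads was 1.93 for IL36G (exact 95% interval 0.601 to 7.20, counting error only) and 0.161 for IL33 (0.00350 to 1.33).

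**Figure D1:**
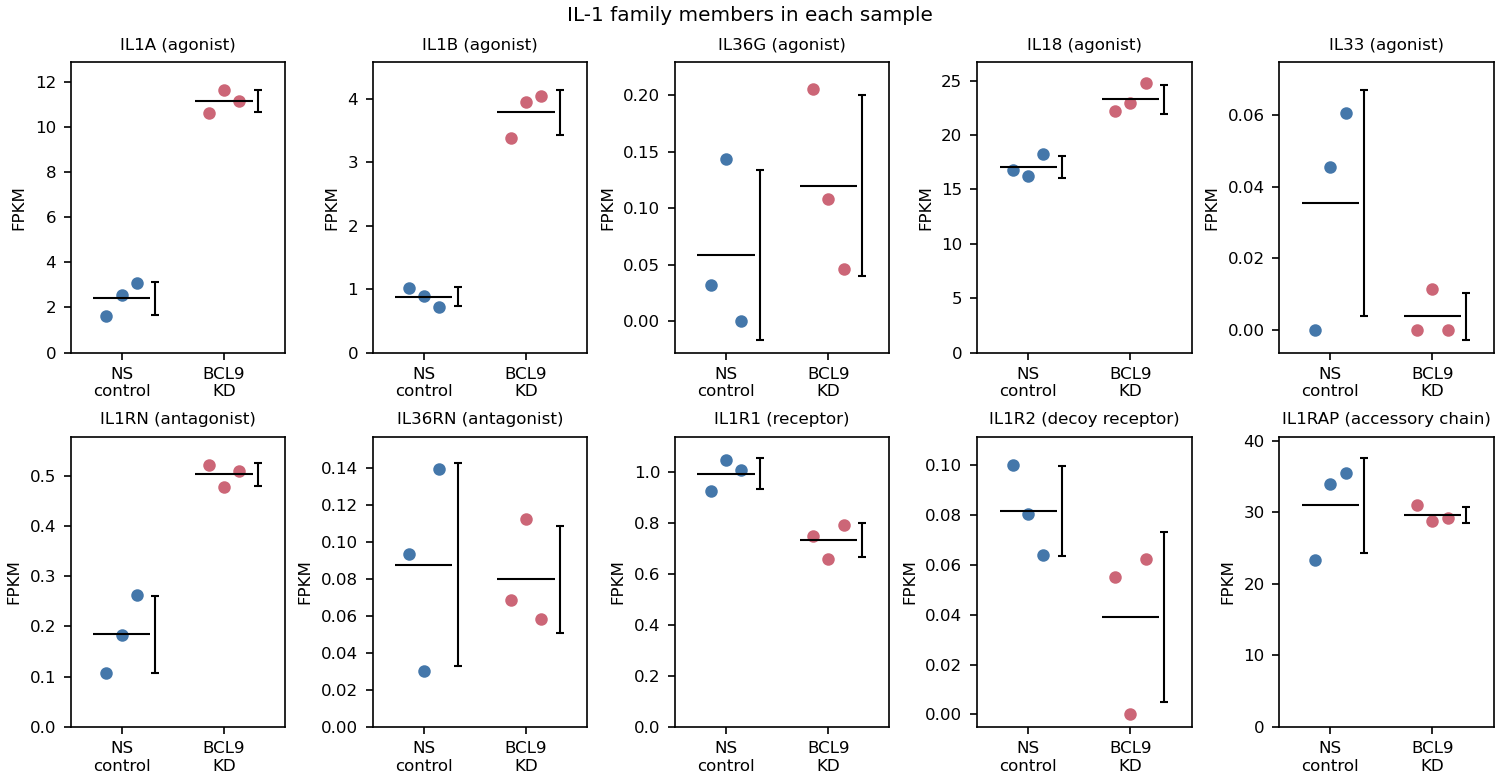
FPKM of the 10 members (vertical axes, each panel with its own linear scale) in the 3 NS control samples and the 3 BCL9 KD samples. Points are samples in the order of their replicate numbers, horizontal lines are group means and the bars beside them are the SD. The groups do not overlap for IL1A, IL1B, IL18, IL1RN, IL1R1 and IL1R2, and IL36G, IL33, IL36RN and IL1R2 stay at or below 0.205 FPKM.

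IL1RN, the antagonist of the IL-1 receptor, was low in both groups and higher in BCL9 KD samples. It had 8, 12 and 13 reads in NS control samples, or 0.108, 0.182 and 0.262 FPKM. In BCL9 KD samples it had 30, 42 and 26 reads, or 0.521, 0.479 and 0.510 FPKM. Every BCL9 KD sample was above every NS control sample, and the BCL9 KD values were close to each other. The means were 0.184 ± 0.0771 and 0.503 ± 0.0220 FPKM (SD, n = 3), with an exact permutation p of 0.1 (two-sided), again the smallest possible. From the pooled reads, IL1RN was 2.87 times as abundant in BCL9 KD as in NS control (exact 95% interval 1.91 to 4.39, counting error only).

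IL1RN was below the mean of 0.5 FPKM needed for the main test, and the result of testing it depended on how low genes were handled. With no filter on low FPKM, its log2 fold change of FPKM + 0.5 was 0.56 and the limma adjusted p was 0.141. That fit tested 30731 genes and called 0.228% of them higher. With voom on the recovered reads of genes with a mean of at least 10 reads, a choice made after seeing the data, IL1RN had a log2 fold change of 1.54 (SE 0.348) and a limma adjusted p of 0.0305. That fit called 5.03% of 14560 genes higher. Leaving out a replicate moved this adjusted p between 0.0152 and 0.132, and the call was lost without NS control replicate 2 (limma adjusted p of 0.116) or without BCL9 KD replicate 1 (0.0616), 2 (0.132) or 3 (0.123).

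IL36RN, the antagonist that blocks the IL-36 receptor, had 7, 2 and 7 reads in NS control and 4, 10 and 3 reads in BCL9 KD samples. The groups overlapped fully, with means of 0.0876 ± 0.0550 and 0.0797 ± 0.0289 FPKM (SD, n = 3). The ratio of pooled reads was 1.03 (exact 95% interval 0.487 to 2.17, counting error only). This interval overlaps that of IL1RN, and the difference between the antagonists was not tested.

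IL1R1, the receptor that binds IL-1α and IL-1β, was lower in BCL9 KD samples by an amount that did not pass the test. It was at 0.926, 1.05 and 1.01 FPKM in NS control samples (149, 150 and 109 reads). It was at 0.751, 0.660 and 0.793 FPKM in BCL9 KD samples (94, 126 and 88 reads). The groups did not overlap, and BCL9 KD replicate 2 was lowest. The log2 fold change was −0.28 (SE 0.134, 95% interval −0.59 to 0.040) with a limma adjusted p of 0.232, and the exact permutation p was 0.1 (two-sided). With all samples kept, the limma adjusted p of IL1R1 ranged from 0.0831 to 0.430 and its log2 fold change from −0.45 to −0.20 over the settings tried, and with a replicate left out the adjusted p ranged from 0.226 to 0.479.

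IL1R2, the decoy receptor that takes up IL-1 without passing on a signal, was barely transcribed. It had 7, 5 and 3 reads in NS control and 3, 0 and 3 reads in BCL9 KD samples. In FPKM the groups did not overlap, with 0.10, 0.0804 and 0.0641 against 0.0552, 0 and 0.0623, although the nearest samples of the groups were both at 3 reads. The ratio of pooled reads was 0.386 (exact 95% interval 0.123 to 1.05, counting error only) and the exact permutation p of the FPKM was 0.1 (two-sided).

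IL1RAP, the accessory chain that the receptors for IL-1, IL-33 and IL-36 share, was the most abundant member by FPKM in both groups. It was at 23.4, 34.0 and 35.6 FPKM in NS control samples and at 31.0, 28.8 and 29.2 FPKM in BCL9 KD samples. The BCL9 KD values lay inside the range of the NS control values, which NS control replicate 1 widened downward. The log2 fold change was −0.039 (SE 0.156, 95% interval −0.41 to 0.33) with a limma adjusted p of 0.891. The value changed with the GC correction and with the NS control sample left out. With the GC correction, IL1RAP fell by 0.28 on the log2 scale with a limma adjusted p of 0.0304, in a fit that called 7.27% of genes lower and 5.66% higher. Without NS control replicate 1 the log2 fold change was −0.23 with a limma adjusted p of 0.0809, whereas it was 0.039 without NS control replicate 2 and 0.071 without NS control replicate 3.

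Of the 10 members, 5 reached a mean of 0.5 FPKM and were tested across 13745 genes, and the other 5 (IL1RN, IL36G, IL36RN, IL1R2 and IL33) were not. IL1A and IL1B chose the family and are left out of any count of calls here. Of the other 8 members, 3 were tested, and IL18 was called higher while IL1R1 and IL1RAP were not called. Of all genes tested, 2.96% were called higher and 2.91% lower. No member was called lower in this fit, also at an unadjusted p under 0.05. In other fits IL1R1 had an unadjusted p of 0.0142 (voom, adjusted p of 0.0831), 0.0149 (limma without the trend), 0.0206 (GC correction), 0.0251 (protein-coding genes only) and 0.0339 (quantile normalization), and IL1RAP was called lower with the GC correction. Apart from IL1A and IL1B, the groups did not overlap for 4 of the 8 members, 2 of them tested (IL18 and IL1R1), and this was so for 34.2% of all genes tested. In these bulk samples, a larger share of cells that make a transcript and more transcript per cell cannot be told apart.

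**Figure D2:**
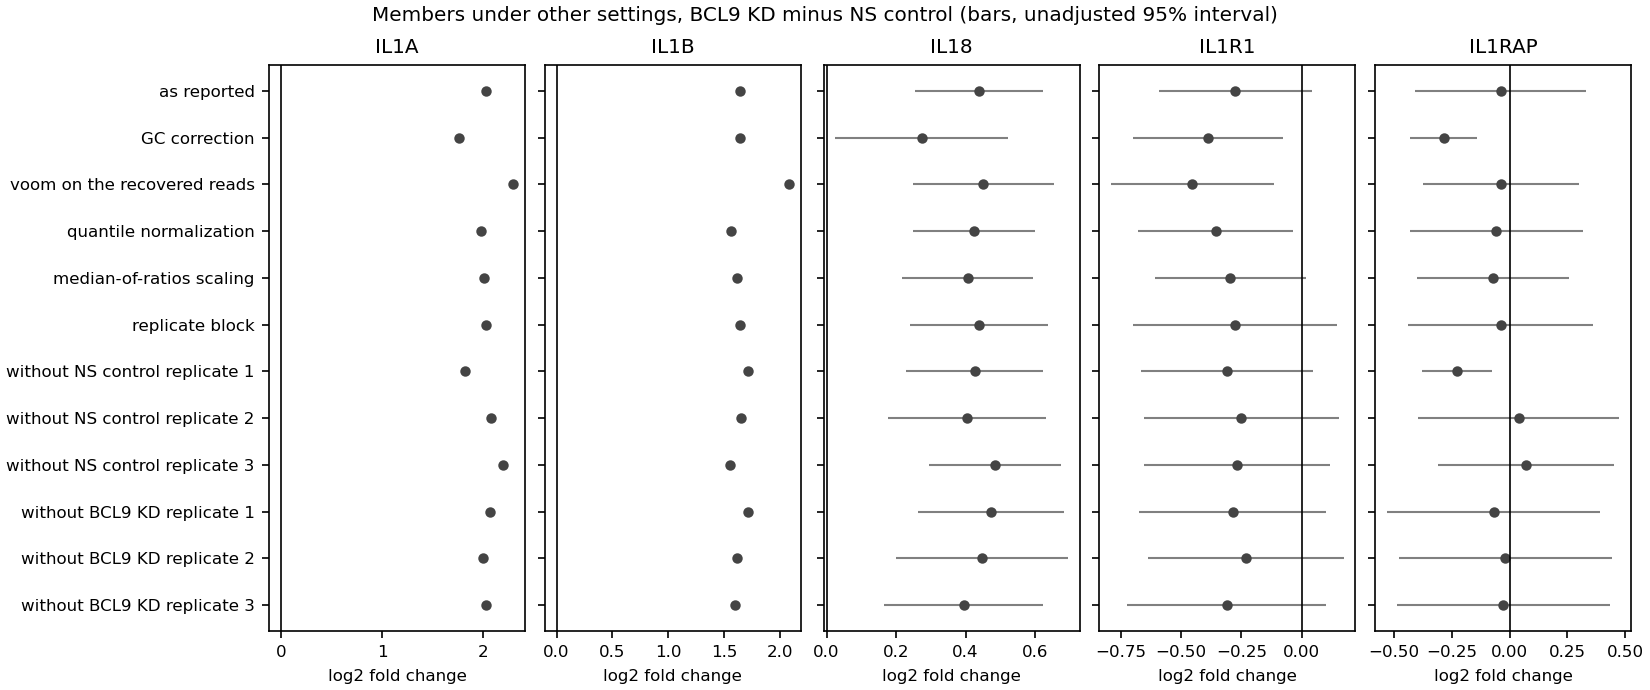
Log2 fold change between BCL9 KD and NS control (horizontal axes) of the 5 tested members under the test as reported and 11 other settings (vertical axis). Points are fold changes and bars are unadjusted 95% intervals, drawn for IL18, IL1R1 and IL1RAP only. IL18 stayed above 0 and IL1R1 below 0 in all settings shown, which include each replicate left out, and IL1RAP was above 0 only without NS control replicate 2 or 3.

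The balance between antagonist and agonist RNA was followed within each sample, where scaling cancels. The FPKM of IL1RN divided by the sum of IL1A and IL1B was 0.0410, 0.0531 and 0.0693 in NS control samples and 0.0372, 0.0308 and 0.0336 in BCL9 KD samples. The ratio was lower in every BCL9 KD sample, with means of 0.0545 ± 0.0142 and 0.0338 ± 0.00324 (SD, n = 3). This ratio contains the values that chose the family, which by themselves lower it in BCL9 KD, so it is a description with no test. The difference of the means was −0.0206, with −0.0132 without NS control replicate 3 and −0.0428 with 0.1 FPKM added to both terms. Its nearest samples were NS control replicate 1 and BCL9 KD replicate 1, and it rests on 8 to 42 reads of IL1RN per sample.

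The proportion of IL1A to IL1B varied more among NS control samples than between the groups. IL1A divided by IL1B was 1.58, 2.84 and 4.24 in NS control samples and 3.14, 2.95 and 2.76 in BCL9 KD samples. The NS control samples spanned the BCL9 KD samples, with means of 2.89 ± 1.33 and 2.95 ± 0.192 (SD, n = 3). The difference of the means was 0.0629, but −0.591 without NS control replicate 1 and 0.742 without NS control replicate 3, so neither a kept nor a changed proportion is shown. The decoy receptor IL1R2 divided by IL1R1 was 0.108, 0.0768 and 0.0634 in NS control and 0.0736, 0 and 0.0786 in BCL9 KD samples, with overlapping groups and an exact permutation p of 0.5 (two-sided). IL36RN was not divided by IL36G, which had 0 reads in NS control replicate 3.

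The order of the members by FPKM, which is per length and so comparable between genes, changed at a single place among the expressed members. In NS control it ran from IL1RAP (31.0 FPKM) and IL18 (17.1) through IL1A (2.41), IL1R1 (0.995) and IL1B (0.880) to IL1RN (0.184). IL1R1 and IL1B overlapped between samples there, and so did each of IL1RN, IL36RN, IL1R2 and IL36G with the next, IL33 being the last. In BCL9 KD it ran from IL1RAP (29.7 FPKM) through IL18 (23.3), IL1A (11.1), IL1B (3.79) and IL1R1 (0.735) to IL1RN (0.503), with no overlap between these neighbours. IL1B therefore stood above its receptor in BCL9 KD samples, while in NS control the ranges of the pair overlapped. Below IL1RN, IL36G, IL36RN, IL1R2 and IL33 overlapped from neighbour to neighbour in BCL9 KD as well.

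Of the 10 members, 7 lie on chromosome 2 in a ligand cluster and a receptor cluster, and the other family genes of both clusters were examined whether or not they were members. Positions are those of the deposited table (hg38). The ligand cluster runs from IL1A (chr2:112773915-112784590) and IL1B (chr2:112829751-112836903) through IL36G (chr2:112973203-112985665) and IL36RN (chr2:113058638-113065382) to IL1RN (chr2:113107214-113134016), over 360.1 kb. IL1A and IL1B, which chose the family, lie at one end and IL1RN at the other. In the order IL37, IL36G, IL36A, IL36B, IL36RN and IL1F10, the 6 genes between them had 2, 5, 0, 2, 16 and 0 reads in the NS control group and 7, 10, 0, 1, 17 and 1 in the BCL9 KD group. IL37, an anti-inflammatory family member, did not overlap between the groups in FPKM, on at most 4 reads per sample. For IL36A, the level that 3 reads would give was between 0.125 and 0.222 FPKM per sample, so levels below this could not be seen.

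The receptor cluster runs from IL1R2 (chr2:101991844-102028544) and IL1R1 (chr2:102064544-102179874) to IL18RAP (chr2:102418689-102452565), over 460.7 kb. Only IL1R1 and IL18R1 of this cluster were tested, and neither was called. IL1RL2, the IL-36 receptor, and IL18RAP, the accessory chain for IL-18, had 0 reads in all 6 samples. IL1RL1, the IL-33 receptor, had 0 reads in NS control and 3 in BCL9 KD samples. IL18R1, which binds IL-18, was at 0.604 ± 0.177 and 0.819 ± 0.0593 FPKM (SD, n = 3), with a log2 fold change of 0.27, a limma adjusted p of 0.347 and overlapping groups. IL1RL1 and IL18R1 overlap in the table, so reads shared by both could not be assigned with certainty. IL18 (chr11:112143251-112164117), IL33 (chr9:6215786-6257983) and IL1RAP (chr3:190514051-190659750) lie elsewhere.

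**Figure D3:**
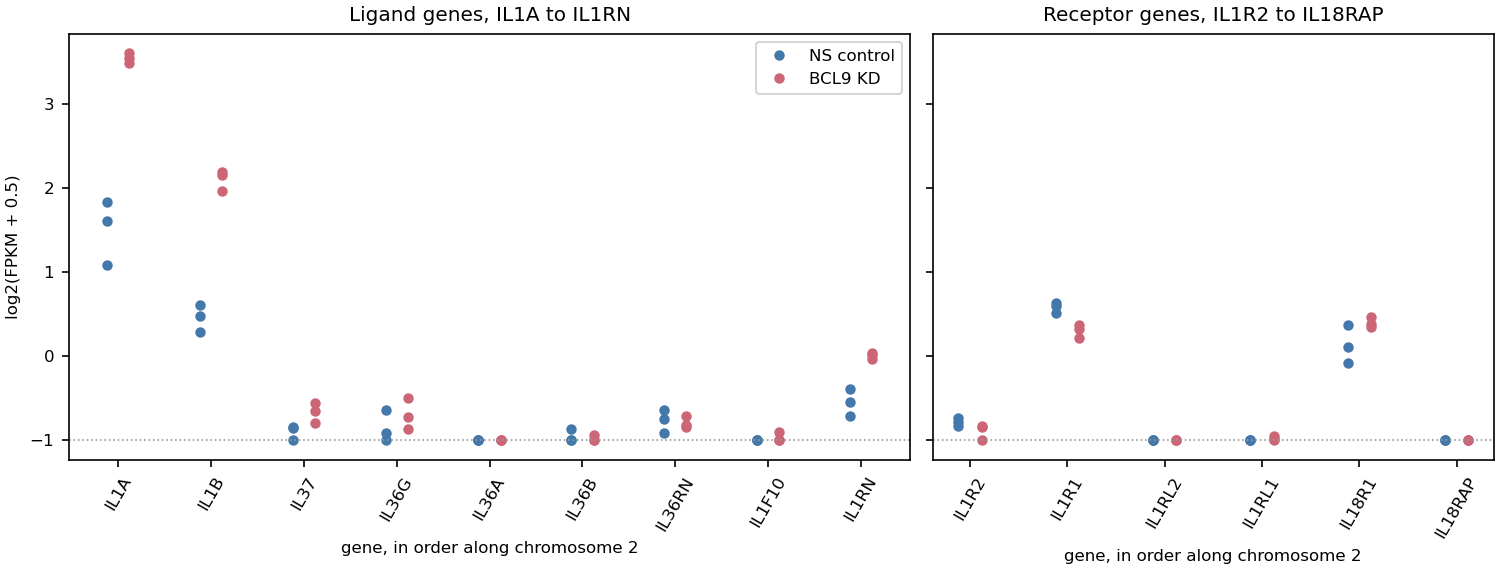
Level of each IL-1 family gene of the ligand cluster (left) and of the receptor cluster (right), as log2(FPKM + 0.5) on the vertical axis, with genes in their order along chromosome 2 on the horizontal axis and a point per sample. The dotted line marks 0 FPKM. IL1A, IL1B and IL1RN were higher in all BCL9 KD samples, and IL36A, IL1RL2 and IL18RAP had no reads.

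The rest of the pathway was described by gene lists, which were drawn up with earlier results of these data known, and their counts are read beside the 2.96% of genes called higher and 2.91% called lower. Of 14 genes of cytokine processing and release, 9 were tested, 2 rose and 0 fell (median log2 fold change 0.14, against 0.040 for all genes tested). PYCARD, the adaptor that joins inflammasome sensors to caspase-1, was at 0.716, 1.13 and 0.949 FPKM in NS control and 2.21, 2.14 and 2.46 FPKM in BCL9 KD samples (log2 fold change 0.96, limma adjusted p of 0.0209). CASP1, the protease that matures IL-1β and IL-18, was at 4.13, 4.87 and 5.44 FPKM against 7.21, 7.0 and 7.04 FPKM (log2 fold change 0.52, limma adjusted p of 0.0404). The groups were apart for both genes, and part of the CASP1 reads could belong to its related neighbour CARD16. The sensors NLRP1, NLRP3, NLRC4 and AIM2, and also CASP5, were too low to be tested.

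Of 17 genes of the receptor signaling chain, 16 were tested, 1 rose and 1 fell (median log2 fold change 0.076), with PELI2 too low. IRAK2, a kinase-like adaptor downstream of the receptor, was at 3.41, 3.56 and 3.58 FPKM in NS control and 6.06, 5.15 and 5.11 FPKM in BCL9 KD samples (log2 fold change 0.56, limma adjusted p of 0.0276). MYD88, the adaptor that IL-1 family receptors share, was at 5.29, 5.70 and 4.68 FPKM against 3.32, 3.58 and 3.82 FPKM (log2 fold change −0.49, limma adjusted p of 0.0422). The call of MYD88 was lost in 5 of the 6 fits without a replicate (limma adjusted p up to 0.182), and that of IRAK2 in 3 of the 6. Of 8 restraints on signaling, 7 were tested, 1 rose and 0 fell (median −0.060), IRAK3 being too low. With the GC correction 1 restraint was called lower, in a fit that called 7.27% of genes lower. The gene that rose was ZC3H12A, a ribonuclease that degrades inflammatory mRNAs, from 8.42 ± 0.279 to 12.1 ± 0.133 FPKM (SD, n = 3, log2 fold change 0.50, limma adjusted p of 0.0166).

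Of 18 genes known to be induced by IL-1 in epithelial cells, 16 were tested, 7 rose and 0 fell, with a median log2 fold change of 0.67. CXCL3 and CSF2 passed the filter only through the BCL9 KD group, and without these 2 genes the median was 0.57. IL6 and CSF3 were too low to be tested. The largest changes among the called genes were in LCN2, an iron-sequestering antimicrobial protein (1.39, limma adjusted p of 0.00942), and in the chemokines CCL20 (1.37, 0.0340), CXCL2 (1.21, 0.0166), CXCL8 (1.17, 0.00392) and CXCL1 (1.12, 0.0124). Among the called genes NFKBIZ, a nuclear cofactor of NF-κB, came next with 0.76 (limma adjusted p of 0.0274). CXCL8, for example, was at 11.9, 13.2 and 13.4 FPKM in NS control and 27.5, 31.0 and 29.7 FPKM in BCL9 KD samples. Each of the 12 genes called in these 4 lists lost its call in 1 to 5 of the 6 fits without a replicate. With no filter on low FPKM, 9 of the 12 were not called, and with no trend 4 of the 12 (CASP1, MYD88, CCL20 and LIF). Of the IL-1 induced genes, 1 was called without NS control replicate 2 or BCL9 KD replicate 2, 0 without BCL9 KD replicate 3, and 2 with no filter on low FPKM, against 7 here. In the other lists of these 4, no gene was called higher without any single one of these 3 replicates. Other family receptors and soluble inhibitors had 3 of 8 genes tested (IL18R1, IL18BP and SIGIRR) and none called by limma or at an unadjusted p under 0.05.

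**Figure D4:**
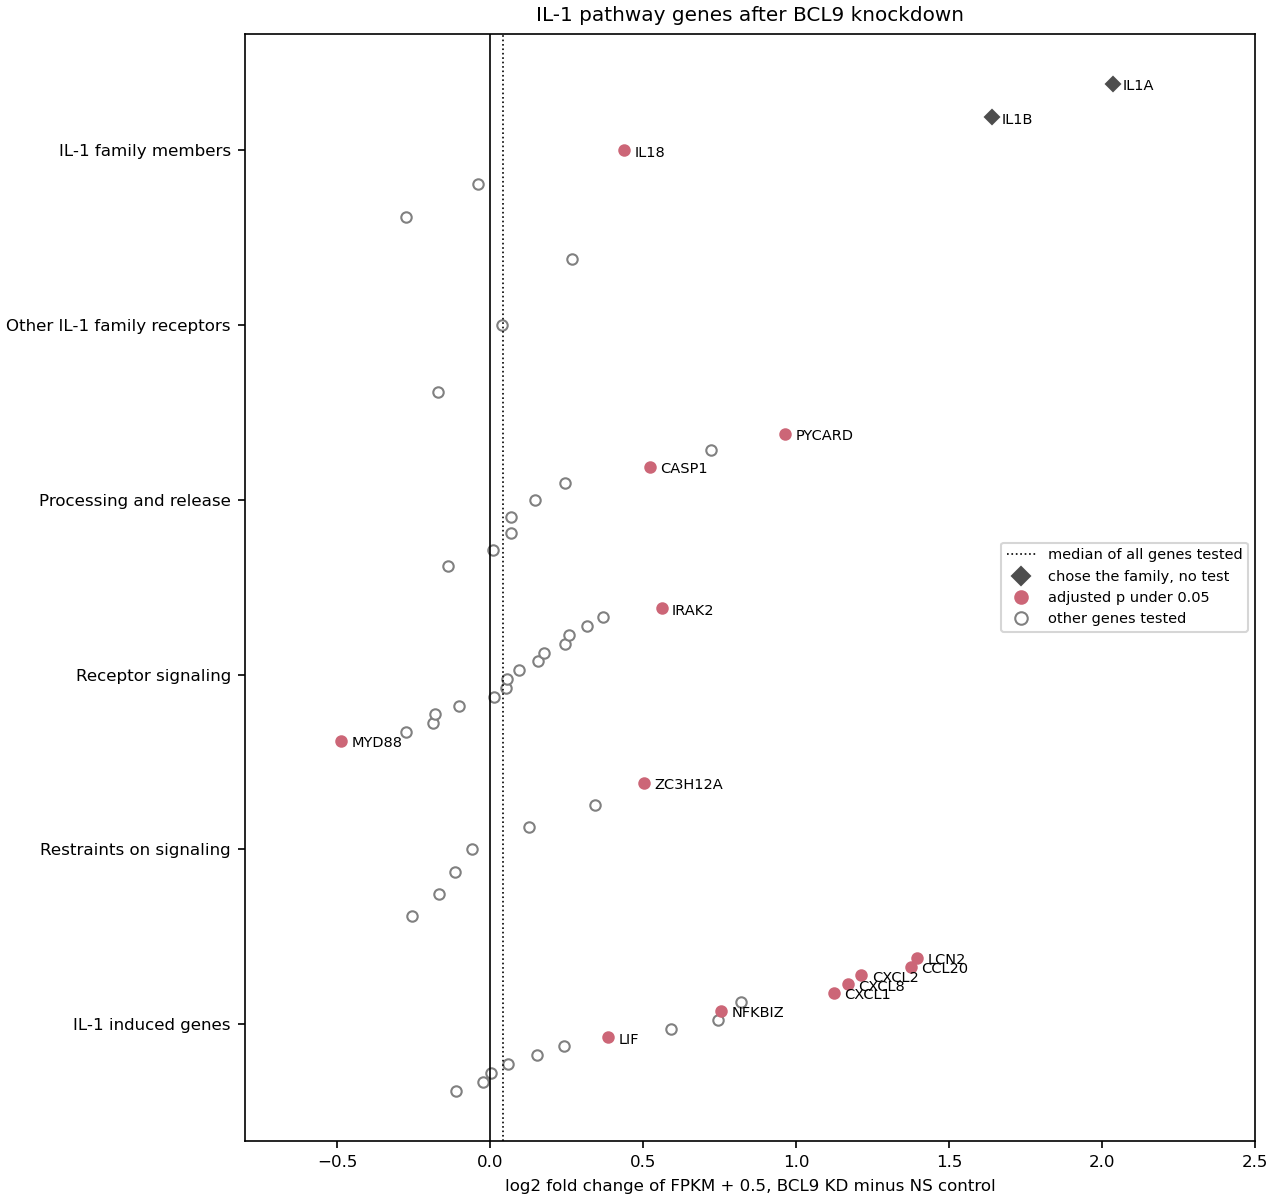
Log2 fold change of FPKM + 0.5 between BCL9 KD and NS control (horizontal axis) of the tested members and the tested genes of 5 pathway lists (vertical axis, spread within a list for legibility). Filled circles have an adjusted p under 0.05, open circles do not, diamonds are the genes that chose the family, and the dotted line is the median of all genes tested. Of the called genes outside the family, MYD88 was the only one lower in BCL9 KD.

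Markers of basal epithelium, the labelled cell type, were abundant in both groups, and markers of other cell types were low. All 8 basal epithelial markers were tested and none was called by limma (2 had an unadjusted p under 0.05), with KRT5 at 398 ± 25.9 and 413 ± 23.8 FPKM (SD, n = 3) and a summed FPKM of 1970 to 2107 in NS control and 2001 to 2056 in BCL9 KD samples. Of 12 leukocyte markers, another possible source of IL-1 family RNA, only CD14 reached the mean needed for a test, and it did so through the BCL9 KD group (0.422 ± 0.136 and 1.04 ± 0.308 FPKM, SD, n = 3), so no test is given for it. Their summed FPKM was 0.639 to 0.810 in NS control and 1.15 to 1.82 in BCL9 KD samples, and CD14 made up most of this difference. The defining leukocyte marker PTPRC had a single read in the 6 samples, and TYROBP and MPO had none. Of 7 fibroblast and endothelial markers, 2 were tested and 1 rose, PECAM1 (log2 fold change 0.61, limma adjusted p of 0.0477), a call lost in 5 of the 6 fits without a replicate (limma adjusted p of 0.0535 to 0.186). Their sum was 2.34 to 2.89 FPKM in NS control and 3.88 to 4.58 FPKM in BCL9 KD samples, a difference made up mostly of PECAM1 (2.10 ± 0.328 and 3.45 ± 0.412 FPKM, SD, n = 3). The part of these 2 marker lists in the results was not tested.

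The genes most like IL1A and IL1B over the 6 samples were found by Pearson's r of log2(FPKM + 0.5) among 11145 other protein-coding genes. They are given as a description, since with 6 samples in 2 groups any gene with a clear difference between the groups scores high. For IL1A these were GPR137B (r = 0.998), UXS1 (0.997), PERP (0.997), DLL1 (0.997) and ART3 (0.997). For IL1B they were APOBEC3G (r = 0.999), MMP2 (0.998), ACTL8 (0.998), HBEGF (0.998) and SLC20A1 (0.998). None of these genes was a member, and the 5 for IL1A and the 5 for IL1B had no gene in common.

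Reads of genes that share positions with the members were few. HMGN2P23, AP002884.2 and AC007271.3, which overlap IL36G, IL18 and IL1R1 on the other strand, had 0 reads. Within IL1RAP on the same strand, RN7SKP296 had at most 19 reads and GCNT1P3 at most 17 reads in a sample, against 5286 to 8982 reads for IL1RAP. The strand setting of the counting is not given in the sources used here, and counts per gene cannot show how many reads fell on both genes.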

How the data were processed

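RNA from the 6 samples was sequenced as paired-end libraries. The authors aligned the reads with STAR to hg38, counted them per gene with HTSeq 0.6.1 and deposited FPKM. Their notes also name CASAVA. In the deposited table, gene length is given in other units, bases. Columns were matched to samples by the labels, and no sample was left out. The product of FPKM and length was a whole number of steps, with 1 step size per sample, for 100% of values (tolerance 0.1), which gave the reads and the depth. At this depth, genes with few reads are imprecise, and the intervals of read ratios (exact binomial, 95%) cover counting error only.

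The members and gene lists were chosen with earlier results of these data known. BCL9 KD was compared with NS control by limma 3.58.1 (R 4.3.3) with trend on log2(FPKM + 0.5), which understates the change of low genes, for genes with a mean of at least 0.5 FPKM, with Benjamini-Hochberg adjustment over all genes tested and an adjusted p under 0.05 as a call. The authors used a count test. Single genes other than IL1A and IL1B were also compared by two-sided exact permutation tests. Python 3.11, pandas 2.3.3, numpy 2.4.6, scipy 1.17.1 and matplotlib 3.10.9 were used. The fit was tested on simulated data.

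All 10 members were named, as were the called genes of each pathway list, at most 6 by absolute log2 fold change, the IL-1 family genes of both clusters and the 5 genes most like IL1A and IL1B. For SOD2, listed in 2 rows, the row with the higher mean was used. Promoter sequences came from RefSeq (GRCh38.p14). Alternatives were the added value, the filter, the scaling, the variance model, voom on recovered reads, protein-coding genes only, the threshold, a replicate block and leaving out each replicate. Added after seeing the data were a GC correction (loess, span 0.3, GC content known for 98.8% of genes tested, from GRCh37 transcripts), this correction with the replicate block, and voom on genes with a mean of at least 10 reads.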

Additional observations from a re-analysis of the deposited data

How the results depend on the processing

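The number of genes called, 807 in the comparison as reported, differed widely between settings. It was 142 with no filter on low FPKM, 332 without the trend, 43 at an adjusted p under 0.01, 1400 with voom on the recovered reads, 1419 with voom on genes with a mean of at least 10 reads, 1409 with protein-coding genes only, 1756 with the GC correction and 372 when the replicate block was added to it. With a replicate left out it ranged from 5 (without BCL9 KD replicate 3) to 1712 (without NS control replicate 3), and was 12 without NS control replicate 2 and 13 without BCL9 KD replicate 2. IL1A and IL1B chose the family, so their calls are not counted here. Of the other members, only IL18 was called higher as reported, and its call was lost without NS control replicate 2 or without BCL9 KD replicate 2 or 3. The limma adjusted p of IL18 with the replicate block was 0.0878. The members called lower were 1 with the GC correction and 0 as reported, and stayed at 0 with each replicate left out. The log2 fold change of IL1RAP, −0.039 as reported, ranged from −0.23 to 0.071 with a replicate left out and changed sign without NS control replicate 2 (0.039) and replicate 3 (0.071), for which the cause was not tested. With the replicate block, limma called 0 genes and 0 members (3235 genes at an unadjusted p under 0.05, against 3775 without the block). The correlations of the deviations of same-numbered samples were −0.147, −0.0884 and −0.00287, and those of different-numbered samples ran from −0.0988 to 0.160. With so few samples, these values cannot tell whether same-numbered samples shared a batch. Values of the members and of the called genes of the other lists were also compared over the settings. Of these, 271 kept their direction and side of the threshold, and 106 kept the direction and lost the call. A further 2 reversed, 1 gained a call and 1 moved. List genes that were not called were left out, and a called gene could not gain a call. For members not tested, a value that moved by less than 1 SD was counted as kept. Of the counts per gene list, 172 stayed within 1.5 times and 38 moved. Of the differences in ratios, 20 moved by less than 1 SD between replicates, although that of IL1A over IL1B changed sign and that of IL1R2 over IL1R1, −0.0321, was −0.00678 without BCL9 KD replicate 2 and −0.0015 with 0.1 FPKM added. IL36G, IL36RN, IL1R2 and IL33 had too few reads for any setting to make a difference detectable unless it were large, and IL1RN rested on 8 to 42 reads per sample.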
